A study of Mus musculus with 12 samples.

Results

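The genes described here are 6 growth factor receptors linked to rhabdomyosarcoma (Met, Fgfr1, Fgfr2, Fgfr3, Fgfr4 and Pdgfra) and Hgf, the ligand of Met. They were listed by name, and all 7 were found among the 19937 genes measured. Each was read by a single probe set, and its level is given as log2 of the array intensity, so a difference of 1 is a 2-fold change. Each probe set binds its own target with its own strength, so levels of different genes are not compared.

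The series measured RNA on 12 Affymetrix mouse arrays in 4 groups of 3. Control muscle (CTL) was hindlimb muscle of uninduced C57BL/6 mice that carried Myf5Cre, the R26-LSL-rtTA allele and Col1a-Teto-hYAP1 S127A, a doxycycline-driven human YAP1 with the S127A change. Myf5Cre limits its expression to cells with a Myf5 history. For the tumours, mice of this genotype took doxycycline for 4 weeks, and interstitial cells from their hindlimb muscle were grafted into the gastrocnemius of NOD/SCID hosts that also received doxycycline. TUM was the tumour at day 0 of doxycycline withdrawal, and OFF3 and OFF6 were tumours 3 and 6 days after withdrawal. NOD/SCID mice lack B and T cells but keep macrophages, so a tumour sample holds graft and host cells, while a control sample is muscle that never received a graft. CTL therefore differs from the tumours in tissue, host strain, grafting and doxycycline together, and these cannot be told apart.

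Receptor tyrosine kinases are membrane proteins that pair up when a ligand binds outside the cell and then phosphorylate themselves and their adaptors. From there the signal runs through the RAS and ERK cascade and through PI3 kinase to growth, survival and movement. In skeletal muscle, HGF acting on Met wakes and moves satellite cells, the resident muscle stem cells. FGF receptors keep myoblasts dividing and hold back their fusion, and Fgfr4 marks muscle progenitors. PDGF receptor alpha is a defining surface protein of fibro-adipogenic progenitors, the connective tissue precursors between the fibres. In human rhabdomyosarcoma, FGFR4 and MET are known as targets of the PAX3-FOXO1 fusion protein, and FGFR4 is mutated in a share of tumours.

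The 7 genes followed different courses. At day 0, Met, Hgf, Fgfr1, Fgfr2 and Fgfr4 were higher in tumour than in control muscle, and Fgfr3 and Pdgfra were lower. After withdrawal, Met, Fgfr1 and Fgfr2 fell by day 3 and stood lower still, as group means, at day 6. Fgfr4 was lower and Fgfr3 higher than in TUM at day 6, and neither passed at day 3. Hgf and Pdgfra were higher at day 3 than at day 0.

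The tissue labels were set against marker genes. The summed intensity of 10 muscle fibre markers ran from 81413 to 83665 in CTL, 23056 to 24920 in TUM, 41053 to 52731 in OFF3 and 42940 to 43185 in OFF6. The sum of 5 cell division markers was 334 to 452 in CTL, 6353 to 6727 in TUM, 1299 to 1846 in OFF3 and 1438 to 1813 in OFF6. As a guide to the level of genes that these tissues are not known to express, the 95th percentile of 1027 odour receptor genes was a log2 level of 5.63 over all arrays. OFF6 replicate 2 stood apart: across genes its mean correlation was 0.995 with the OFF3 arrays and 0.991 with its own group, a description of arrays and not a test. For the 7 genes, values without it are given where they change a call. RNA of whole tissue was measured, so fewer cells of a type and less RNA per cell cannot be told apart. Uty and Eif2s3y, genes of the Y chromosome chosen after their values were seen, had log2 levels of at most 4.84 on the CTL arrays and at least 6.92 on every tumour array. Uty also varied among tumours, with means of 7.40 in TUM and 8.07 in OFF3 and values of 7.02 to 8.16 in OFF6. Xist, which the inactive X chromosome expresses, read 10.70 to 10.85 in CTL and 10.79 to 11.46 in the tumours. The part of these differences in the comparisons was not tested.

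**Figure D1:**
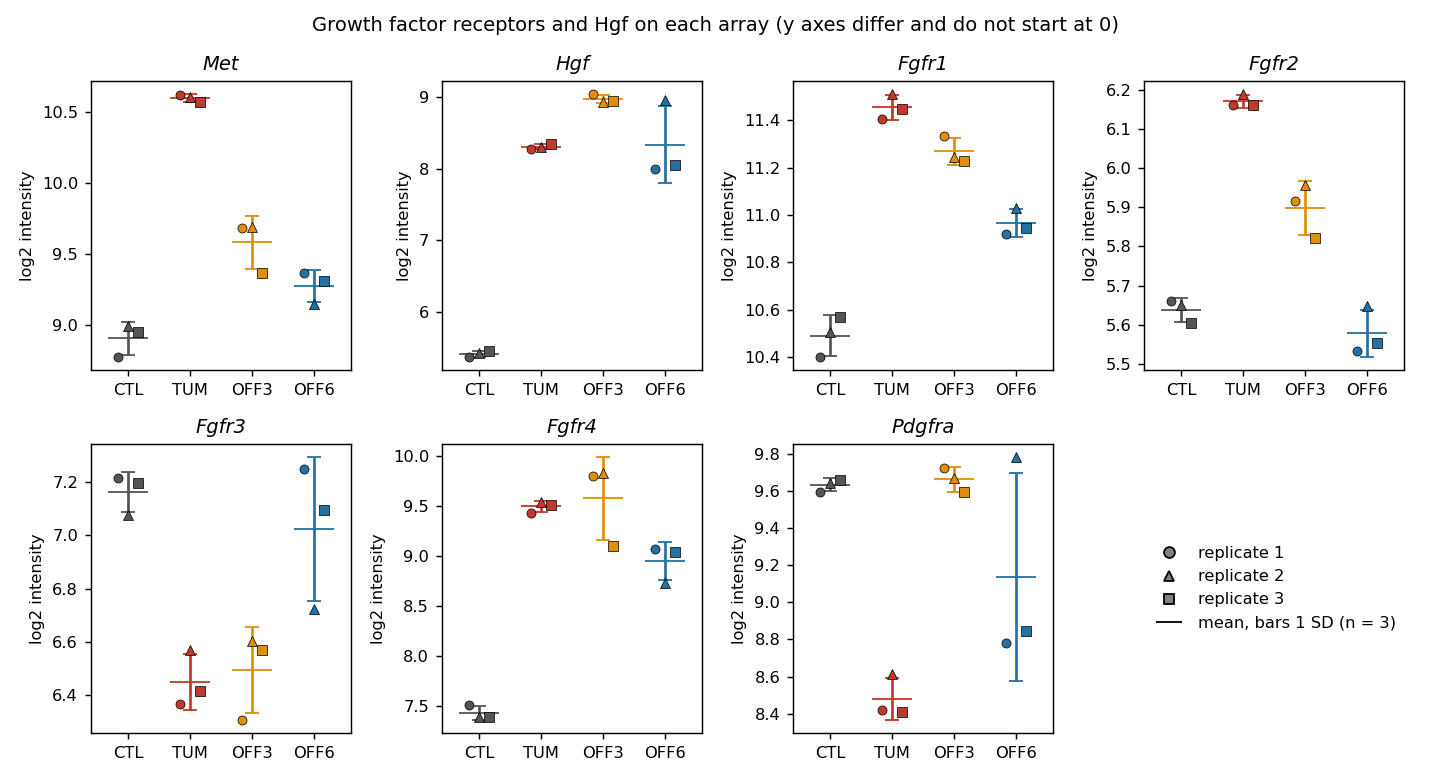
Log2 intensity (y axis, not starting at 0, scaled per gene) of the 7 genes in control muscle (CTL) and tumours 0 (TUM), 3 (OFF3) and 6 (OFF6) days off doxycycline (x axis). Each symbol is 1 array by replicate number, the horizontal line is the group mean and bars are 1 SD (n = 3); Met falls from 10.60 in TUM to 9.28 in OFF6, and OFF6 replicate 2 sits apart from its group in Hgf and Pdgfra.

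Met encodes the receptor of hepatocyte growth factor (probe set 10536505, gene at chr6:17463349-17573980 of GRCm38.p6). Its RefSeq promoter window, the 250 bases before the transcript start, lies inside the annotated gene span (chr6:17463707-17463956). It holds 1 match to the AP-1 motif TGANTCA, which is also found in 6.75% of 32851 such windows. The match begins 54 bases before the start, and the stretch around it is shown because Fosl1, a member of the AP-1 family, is among the genes described below; capitals mark the match (chr6:17463891-17463920, + strand).
Met AP-1 match: ctgttgcccggcTGAGTCAcgggccgggca
A match of letters is not a binding site, and these data hold no measurement of binding.

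Met was the member with the largest fall after withdrawal. Its log2 level was 10.62, 10.60 and 10.57 on the TUM arrays (replicates 1, 2 and 3 here and throughout), 9.68, 9.69 and 9.37 in OFF3, and 9.37, 9.15 and 9.31 in OFF6. Control muscle gave 8.78, 8.99 and 8.95. Each TUM array lay above each array after withdrawal, and each of those lay above each CTL array. The means were 10.60 ± 0.03 in TUM, 9.58 ± 0.18 in OFF3, 9.28 ± 0.11 in OFF6 and 8.91 ± 0.12 in CTL (SD, n = 3). Met fell by 1.01 ± 0.09 (SE) at day 3, a 2.02-fold change, with an adjusted p of 5.87e-06 in limma. By day 6 the fall was 1.32 ± 0.09, or 2.50-fold (adjusted p = 5.30e-07). CTL differed from TUM by -1.69, 3.22-fold lower (adjusted p = 4.12e-09).

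The step in Met from day 3 to day 6, -0.31, did not pass (adjusted p = 0.0603, 95% interval -0.51 to -0.10), although OFF3 and OFF6 arrays did not overlap. The step passed with array weights (-0.36, adjusted p = 6.77e-05), with quantile normalisation (-0.34, 0.0192) and among genes above the median level (0.0376). In other alternatives its adjusted p reached 0.20. Without OFF3 replicate 3, the lowest of its group, it was -0.41 (adjusted p = 0.0138). That array also had the highest muscle fibre sum of the group, 52731, and the lowest cell division sum, 1299; their part in the Met value was not tested. Met stayed above control muscle at day 3 by 0.67 (adjusted p = 3.83e-05). At day 6 it was 0.37 above it (adjusted p = 0.00466), but with arrays centred on their median the day 6 difference was 0.19 (adjusted p = 0.0984). Of the distance between TUM and CTL, Met had covered 60.1% at day 3 and 78.3% at day 6.

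Over the 12 arrays, with each gene centred on its own mean, the measured genes that ran closest to Met were Blm, Wee1 and Tacc3. Their root mean square distance from Met was 0.12, 0.12 and 0.13 log2 units. Blm is a DNA helicase, Wee1 a kinase that holds back entry into mitosis, and Tacc3 a spindle protein. Their TUM means were 7.20 (Blm), 9.34 (Wee1) and 7.95 (Tacc3), and their OFF6 means 6.02, 8.22 and 6.65. The cell division marker sums given above moved the same way as Met, and their part in its fall was not tested.

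Hgf, the secreted ligand of Met, lies at chr5:16553495-16619439 (probe set 10519857). The CTL arrays read 5.37, 5.42 and 5.45, below the 95th percentile of odour receptors on those arrays, which was at least 5.75. TUM read 8.27, 8.30 and 8.34, OFF3 9.04, 8.94 and 8.94, and OFF6 7.996, 8.96 and 8.05. OFF3 lay wholly above TUM, while OFF6 replicate 2 was at the OFF3 level and the other two OFF6 arrays lay below every TUM array. Group means were 5.41 ± 0.04 in CTL, 8.30 ± 0.03 in TUM, 8.97 ± 0.06 in OFF3 and 8.33 ± 0.54 in OFF6 (SD, n = 3).

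Hgf rose 1.59-fold by day 3, by 0.67 ± 0.19 (adjusted p = 0.0164, limma), a call that was lost without TUM replicate 1 (0.65, adjusted p = 0.0523). Over all alternatives its adjusted p ran from 6.86e-07 to 0.0523. The standard error pools the spread of all 4 groups, and the SD was 0.03 in TUM and 0.06 in OFF3 but 0.54 in OFF6. At day 6 it differed from TUM by 0.03 ± 0.19 (adjusted p = 0.922, 95% interval -0.38 to 0.44). Without OFF6 replicate 2 the day 6 difference turned to -0.28 (adjusted p = 0.00318), and with array weights it was -0.22 (adjusted p = 0.0218). Between day 3 and day 6 Hgf fell by 0.64 (adjusted p = 0.0487) with overlapping arrays. That fall was 0.95 without OFF6 replicate 2 (adjusted p = 8.22e-07), and it did not pass without any other single OFF3 or OFF6 array (adjusted p up to 0.218). Since all CTL arrays lay below the odour receptor percentile, the fold over CTL is a lower bound, set against the mean of those percentiles, 5.82. TUM was at least 5.59-fold higher than CTL (adjusted p = 1.66e-08), OFF3 at least 8.89-fold (adjusted p = 3.11e-09) and OFF6 at least 5.71-fold (adjusted p = 2.20e-08).

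Macrophage markers moved with Hgf. The summed intensity of 8 of them (Adgre1, Csf1r, Cd68 and 5 others) was 1597 to 1804 in CTL, 11479 to 11534 in TUM and 12988 to 14540 in OFF3. In OFF6 it was 13550 on replicate 2 and 8478 and 8510 on the other two, the same order as Hgf, and none of the 8 lay at the odour receptor level on any array. Single markers moved less evenly. All 8 were lower in CTL than in TUM (all genes 30.3%), 2 rose and 1 fell at day 3 (all genes 13.4% and 16%), and 0 rose and 2 fell at day 6 (all genes 14.9% and 16.6%). The part of these cells in the Hgf values was not tested. The genes closest to Hgf over the 12 arrays were Cd84 (distance 0.11), a receptor of immune cells, Tlr1 (0.12), a receptor for bacterial lipoproteins, and the Y-linked Uty (0.14). Cd84 had means of 6.25 in CTL, 9.09 in TUM, 9.83 in OFF3 and 9.17 in OFF6.

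**Figure D2:**
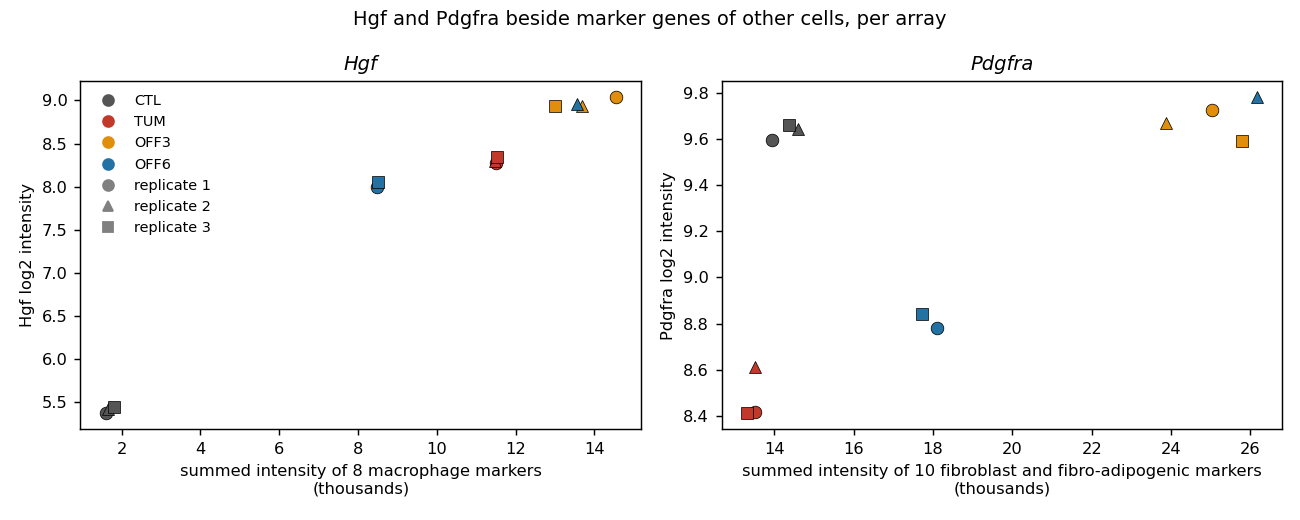
Left, Hgf log2 intensity (y axis) against the summed intensity of 8 macrophage markers (x axis, in units of 1000); right, Pdgfra against 10 fibroblast and fibro-adipogenic markers. Each point is 1 array, coloured by group and shaped by replicate number; OFF6 replicate 2 (blue triangle) lies with the OFF3 arrays in both, and the CTL arrays have high Pdgfra at a fibroblast sum of 13931 to 14589, although 5 of the 10 markers were higher in CTL than in TUM.

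Genes of HGF activation and partners of Met were examined as a list of 17 measured genes. The list also holds inhibitors, such as Spint2 and Lrig1, so its counts mix opposite actions. HGF is secreted as an inactive chain that proteases cut, and Hgfac, St14, Hpn and the urokinase Plau are among its known activators. Each count of a list, here and below, is to be read beside the share of all genes that passed. Of all genes, 13.4% rose and 16% fell at day 3, and 14.9% rose and 16.6% fell at day 6. In CTL 45.9% of all genes were higher and 30.3% lower than in TUM. Of the 17 listed genes, 4 rose and 5 fell at day 3, with a median difference of 0.03 against 0.02 over all genes. At day 6, 3 rose and 4 fell (median 0.05, all genes 0.05), and in CTL 8 were higher and 6 lower than in TUM (median 0.15, all genes 0.15). Plau fell by 1.20 ± 0.08 at day 3 and by 1.17 ± 0.08 at day 6, 2.30- and 2.25-fold. Its receptor Plaur fell by 1.75 ± 0.12 and 1.77 ± 0.12. The integrin subunit Itgb4, which can join Met at the membrane, fell by 1.10 ± 0.09 and 1.59 ± 0.09. The largest adjusted p of these 6 falls was 1.24e-06. Plat, the tissue plasminogen activator, rose by 0.92 ± 0.08 and 0.71 ± 0.08. Hgfac, the serum activator of HGF, differed by -0.05 (adjusted p = 0.756) and -0.01 (adjusted p = 0.943). Its means, 5.34 in TUM, 5.29 in OFF3 and 5.33 in OFF6, lay below the odour receptor percentile of 5.63. Mst1r, the receptor most like Met, fell by 0.37 at day 3 (adjusted p = 0.00183) and differed by -0.20 at day 6 (adjusted p = 0.0534). The day 6 difference passed without OFF6 replicate 2 (-0.23, adjusted p = 0.0405), with centred arrays (-0.24, 0.0202), quantile normalisation (-0.27, 0.0117) or array weights (-0.22, 0.00193), and in a fit of only those 6 arrays (0.0291).

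Of the FGF receptors, Fgfr1 (probe set 10570982, chr8:25518759-25575718) is the broadly expressed one in mesenchymal tissue. It read 11.40, 11.51 and 11.45 in TUM, 11.33, 11.25 and 11.23 in OFF3, 10.92, 11.03 and 10.95 in OFF6, and 10.40, 10.51 and 10.57 in CTL. The 4 groups did not overlap and ran TUM, OFF3, OFF6, CTL from high to low. Means were 11.45 ± 0.05, 11.27 ± 0.06, 10.97 ± 0.06 and 10.49 ± 0.08 in that order (SD, n = 3). Fgfr1 fell by 0.49 ± 0.06 by day 6 (1.40-fold, adjusted p = 8.20e-05, limma) and in CTL it differed from TUM by -0.96 (1.95-fold lower, adjusted p = 2.25e-08). At day 3 the fall of 0.19 ± 0.06 (1.14-fold, adjusted p = 0.0459) was lost with quantile normalisation (adjusted p = 0.0521) and without TUM replicate 1 (0.066), 2 (0.155) or 3 (0.107), or OFF3 replicate 2 (0.126) or 3 (0.128). From day 3 to day 6 it fell by 0.30 (adjusted p = 0.0137). That step was lost without OFF3 replicate 1 (adjusted p = 0.0513), OFF6 replicate 1 (0.0711) or OFF6 replicate 3 (0.0701). Fgfr1 remained above CTL by 0.78 at day 3 (adjusted p = 2.40e-07) and by 0.47 at day 6 (adjusted p = 2.93e-05). It had covered 19.3% and then 50.7% of the distance to CTL.

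Fgfr2 (probe set 10568436, chr7:130162451-130266808) makes alternative receptor forms for epithelial and mesenchymal cells. Its signal was dim throughout. TUM read 6.16, 6.19 and 6.16, OFF3 5.92, 5.96 and 5.82, OFF6 5.53, 5.65 and 5.55, and CTL 5.66, 5.65 and 5.60. TUM lay above OFF3 and OFF3 above both other groups, while OFF6 and CTL overlapped near the odour receptor percentile of 5.63, so the falls are toward the level of genes not known to be expressed. Fgfr2 fell by 0.27 ± 0.06 at day 3 (1.21-fold, adjusted p = 0.0033) and by 0.59 ± 0.06 at day 6 (1.51-fold, adjusted p = 6.77e-06). TUM was at least 1.27-fold higher than CTL, a bound because all CTL arrays lay below the odour receptor percentile (adjusted p = 2.97e-06), and the fall from day 3 to day 6 was 0.32 (adjusted p = 0.0071). At day 6 it differed from CTL by -0.06 (adjusted p = 0.374, 95% interval -0.19 to 0.07), which became -0.24 (adjusted p = 0.00146) with arrays centred on their median and 0.095 (adjusted p = 0.258) with quantile normalisation. At day 3 it was at least 1.05-fold above CTL (measured difference 0.26, adjusted p = 0.0016; 0.087, adjusted p = 0.153, with centred arrays). The sum of 8 epithelial markers was 4421 to 4897 in TUM, 1793 to 1839 in OFF3, 1275 to 1686 in OFF6 and 695 to 750 in CTL, with 3 of the 8 at the odour receptor level on every array. Krt8, with means of 11.94 in TUM, 9.61 in OFF6 and 7.57 in CTL, and Krt18, with 8.56, 7.69 and 7.001, carried most of the TUM sum. Of the 8 markers, 0 rose and 3 fell at day 3 (all genes 13.4% and 16%), and 1 rose and 2 fell at day 6 (all genes 14.9% and 16.6%). In CTL 4 were higher and 2 lower than in TUM (all genes 45.9% and 30.3%). Their part in the Fgfr2 values was not tested.

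Fgfr4 was the FGF receptor with the largest measured difference between tumour and control muscle. It lies at chr13:55152818-55168759 (probe set 10405380). The 250 bases before its start are shown because its day 0 level was over 4-fold that of CTL. Capitals mark 2 matches to the GC box GGGCGG on either strand (32.7% of all windows hold one); the window holds no match to the TEAD motif GGAATG (12.6% of windows), the letters bound by the partners of YAP1, nor to the AP-1 letters given above (chr13:55152568-55152817, + strand).
Fgfr4 upstream window: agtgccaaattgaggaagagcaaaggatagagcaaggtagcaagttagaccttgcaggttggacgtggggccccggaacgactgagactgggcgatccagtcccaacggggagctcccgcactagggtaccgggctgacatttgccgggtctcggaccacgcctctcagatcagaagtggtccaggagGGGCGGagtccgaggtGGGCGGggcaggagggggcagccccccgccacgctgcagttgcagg
None of the 8 windows of the 6 members with a RefSeq promoter entry held the TEAD letters, which says only that these letters are not within those windows.

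Fgfr4 read 9.43, 9.54 and 9.51 in TUM, 9.80, 9.83 and 9.10 in OFF3, 9.07, 8.73 and 9.04 in OFF6, and 7.51, 7.39 and 7.39 in CTL. OFF3 spread to both sides of TUM, its replicate 3 lying below every TUM array and the other two above. OFF6 lay below both, and CTL far below all. Means were 9.50 ± 0.05 in TUM, 9.58 ± 0.41 in OFF3, 8.95 ± 0.19 in OFF6 and 7.43 ± 0.07 in CTL (SD, n = 3). Fgfr4 in CTL differed from TUM by -2.07, 4.19-fold lower (adjusted p = 1.04e-07, limma). At day 3 it differed from TUM by 0.08 ± 0.16 (adjusted p = 0.785, 95% interval -0.27 to 0.43). Without OFF3 replicate 3, the array with the high fibre sum, the difference was 0.32 (adjusted p = 0.0319), and with array weights 0.33 (adjusted p = 0.0013). By day 6 Fgfr4 fell by 0.55 ± 0.16 (1.46-fold, adjusted p = 0.0195), a call lost without OFF6 replicate 2 (-0.44, adjusted p = 0.0612), TUM replicate 2 (-0.53, 0.0585) or TUM replicate 3 (-0.54, 0.0577).

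From day 3 to day 6 Fgfr4 fell by 0.63 (adjusted p = 0.0282). This step was lost without OFF3 replicate 1 (-0.52, adjusted p = 0.107) or 2 (-0.50, 0.11), or OFF6 replicate 1 (-0.69, 0.0687) or 3 (-0.68, 0.0801). Fgfr4 was still 2.15 above CTL at day 3 (4.43-fold, adjusted p = 9.01e-08) and 1.52 above it at day 6 (2.86-fold, adjusted p = 2.99e-06). It had covered 26.6% of the distance to CTL at day 6, against 78.3% for Met. The sum of 8 myoblast and satellite cell markers was 8812 to 9080 in CTL, 13029 to 13456 in TUM, 13329 to 13672 in OFF3 and 13173 to 17148 in OFF6. Des carried most of the CTL sum, with means of 12.68 in CTL and 12.20 in TUM. Myf5 and Vcam1 had means of 6.08 and 7.49 in CTL and of 9.53 and 11.27 in TUM. Of the 8 markers, 1 rose and 3 fell at day 3 (all genes 13.4% and 16%), and 2 rose and 4 fell at day 6 (all genes 14.9% and 16.6%). In CTL 3 were higher and 5 lower than in TUM (all genes 45.9% and 30.3%, list median -1.18). The part of these markers in the Fgfr4 values was not tested. The genes closest to Fgfr4 over the 12 arrays were Ctxn1 (distance 0.16), Mex3b (0.20), an RNA-binding protein, and Dbn1 (0.20), an actin-binding protein. Dbn1 had means of 8.45 in CTL, 10.23 in TUM, 10.27 in OFF3 and 9.89 in OFF6.

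Fgfr3, which restrains growth of cartilage in the skeleton, was the FGF receptor that ran the other way (probe set 10521111, chr5:33721724-33737068). RefSeq gives it 2 start windows, and the one outside the annotated gene span is printed, beside that of Fgfr4, for this reason. Capitals mark 3 matches to the GC box and, 97 bases before the start, 1 match to the E-box CAGCTG, a form bound by MyoD-type factors and found in 13% of windows (chr5:33721474-33721723, + strand).
Fgfr3 upstream window: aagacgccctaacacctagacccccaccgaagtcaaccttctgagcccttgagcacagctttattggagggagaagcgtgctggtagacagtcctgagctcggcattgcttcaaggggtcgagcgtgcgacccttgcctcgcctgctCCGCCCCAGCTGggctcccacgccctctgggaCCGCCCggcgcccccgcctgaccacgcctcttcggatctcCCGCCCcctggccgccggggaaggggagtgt
The other start window (chr5:33722056-33722305) held 2 GC box matches and no match to the E-box. No measurement of factor binding belongs to these data.

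TUM read 6.37, 6.57 and 6.42, OFF3 6.31, 6.61 and 6.57, OFF6 7.25, 6.72 and 7.10, and CTL 7.22, 7.08 and 7.20. TUM and OFF3 overlapped, OFF6 lay above both, and OFF6 replicates 1 and 3 lay within or above the CTL range while replicate 2 was lower. Means were 6.45 ± 0.11 in TUM, 6.50 ± 0.16 in OFF3, 7.02 ± 0.27 in OFF6 and 7.16 ± 0.08 in CTL (SD, n = 3). Fgfr3 differed by 0.04 ± 0.12 at day 3 (adjusted p = 0.857, 95% interval -0.22 to 0.31). Array weights gave 0.17 (adjusted p = 0.0245), and the sign turned with quantile normalisation (-0.028). It rose by 0.57 ± 0.12 at day 6 (1.49-fold, adjusted p = 0.00311), and by 0.72 without OFF6 replicate 2. CTL was 0.71 above TUM (1.64-fold, adjusted p = 0.000197), and 0.67 above OFF3 (adjusted p = 0.000376).

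The rise of Fgfr3 from day 3 to day 6 was 0.53 (adjusted p = 0.0198). It was lost without OFF3 replicate 1 (0.43, adjusted p = 0.0772), OFF6 replicate 1 (0.41, 0.0956) or OFF6 replicate 3 (0.49, 0.0976). At day 6 Fgfr3 differed from CTL by -0.14 (adjusted p = 0.332, 95% interval -0.41 to 0.13). This became 0.011 without OFF6 replicate 2, and passed at -0.32 (adjusted p = 0.033) with centred arrays and -0.34 (adjusted p = 0.023) with quantile normalisation. The sum of 6 cartilage and bone markers was 672 to 802 in CTL and 1187 to 1226 in TUM. It was 1142 to 1274 in OFF3 and 1100 to 1472 in OFF6. On every array 3 of the 6 lay at the odour receptor level. Of the 6 markers measured, 1 rose and 0 fell at day 6 (all genes 14.9% and 16.6%). In CTL 3 were higher and 1, Sox9, lower than in TUM (all genes 45.9% and 30.3%). Their part in the Fgfr3 values was not tested.

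All 22 genes of the FGF family were measured, of which Fgf11, Fgf12, Fgf13 and Fgf14 are intracellular members and not secreted ligands. At day 3, 3 of the 22 rose and 1 fell (all genes 13.4% and 16%), with a median of 0.12 beside 0.02 over all genes. Fgf12 was among these rises, and Fgf14 was the fall. At day 6, 6 rose and 1 fell (all genes 14.9% and 16.6%), with a median of 0.16 beside 0.05. Fgf11 and Fgf13 were among the day 6 rises, and Fgf14 was again the fall. On every array Fgf14 lay below the odour receptor percentile, with a TUM mean of 5.34. Its differences are thus within the level of genes not known to be expressed. Fgf2, which myoblasts and injured fibres release, rose by 0.60 ± 0.08 at both times (adjusted p = 0.00011 and 9.74e-05) and was 1.59 higher in CTL than in TUM. In CTL, 16 of the 22 genes were higher than in TUM and 3, among them Fgf11 and Fgf14, lower (all genes 45.9% and 30.3%, median 0.39). Fgf13, an intracellular member of the family, was 2.52 ± 0.14 and Fgf1 2.00 ± 0.07 higher in CTL. Fgf6, a muscle-specific ligand, lay below the odour receptor percentile on every TUM array and was at least 3.21-fold higher in CTL. Odour receptors were also higher in CTL in 477 of 1027 cases, 46.4%, with a median of 0.15, so a small excess of a dim gene in CTL is shared by genes these tissues are not known to express. Fgf7, a ligand of the epithelial form of Fgfr2, differed by -0.22 (adjusted p = 0.235) at day 3 and 0.23 (adjusted p = 0.179) at day 6; array weights gave -0.31 at day 3 (adjusted p = 0.000175).

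Among 11 co-receptors and adaptors of FGF signalling, 1 rose and 1 fell at day 3 (all genes 13.4% and 16%). At day 6, 2 rose and 1 fell (all genes 14.9% and 16.6%). The day 3 rise was lost with centred arrays, without OFF3 replicate 2 or 3, and without any 1 of the TUM arrays, while array weights gave 6 rises and 1 fall at day 3 and 3 of each at day 6. Fgfrl1, a receptor of the family with no kinase domain, rose by 1.49 ± 0.23 at day 6 (2.80-fold, adjusted p = 0.000298) and differed by 0.47 ± 0.23 at day 3 (adjusted p = 0.155). Ncam1, a cell adhesion protein that binds FGF receptors, rose by 0.36 ± 0.11 and 0.75 ± 0.11; its day 3 call was lost when any 1 of the 6 arrays was left out (adjusted p 0.0519 to 0.0724) and with centred arrays (0.0563). N-cadherin, Cdh2, another such partner, fell by 1.08 ± 0.16 and 0.97 ± 0.16, and its CTL difference from TUM was -4.36 (20.6-fold lower, adjusted p = 6.90e-11). Of 12 heparan sulphate proteoglycans, which hold FGFs and HGF at the cell surface, 5 rose and 1 fell at day 3 (all genes 13.4% and 16%). At day 6, 4 rose and 2 fell (all genes 14.9% and 16.6%). Without TUM replicate 1 the day 3 count was 2 and 1, and without TUM replicate 1 or 3 the day 6 count was 1 and 2. Sdc4 fell, by differences of -1.05 ± 0.08 and -0.96 ± 0.08, while Sdc3 rose by 0.43 ± 0.10 and 0.35 ± 0.10. The day 6 rise of Sdc3 was lost without OFF6 replicate 2 (0.28, adjusted p = 0.0552), TUM replicate 1 (0.0542) or TUM replicate 3 (0.056).

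Pdgfra (probe set 10522503, chr5:75151322-75198206) encodes the PDGF receptor alpha. Its log2 level was 8.42, 8.61 and 8.41 in TUM, 9.72, 9.67 and 9.59 in OFF3, 8.78, 9.78 and 8.84 in OFF6, and 9.59, 9.64 and 9.66 in CTL. Every array after withdrawal lay above every TUM array. OFF3 overlapped CTL, and OFF6 was split, with replicate 2 above all CTL arrays and the other two well below them. Means were 8.48 ± 0.11 in TUM, 9.66 ± 0.07 in OFF3, 9.14 ± 0.56 in OFF6 and 9.63 ± 0.03 in CTL (SD, n = 3).

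Pdgfra rose by 1.18 ± 0.20 at day 3, 2.27-fold (adjusted p = 0.000603, limma), to a level that differed from CTL by 0.03 (adjusted p = 0.90, 95% interval -0.40 to 0.46; -0.14 with centred arrays and -0.035 with quantile normalisation). CTL was 1.15 above TUM (2.22-fold, adjusted p = 0.000182). By day 6 the rise over TUM was 0.65 ± 0.20 (1.57-fold, adjusted p = 0.0227). It was 0.33 without OFF6 replicate 2 (adjusted p = 0.00386), and it did not pass without TUM replicate 1 (0.62, adjusted p = 0.0721) or TUM replicate 3 (0.62, 0.0743). From day 3 to day 6 the difference was -0.53 (adjusted p = 0.115, 95% interval -0.95 to -0.10), and -0.85 without OFF6 replicate 2 (adjusted p = 7.32e-06). At day 6 Pdgfra differed from CTL by -0.50 (adjusted p = 0.0421) with overlapping arrays, and by -0.82 without that array (adjusted p = 8.14e-07). This call was lost when any 1 of the other 5 CTL and OFF6 arrays was left out (adjusted p 0.0769 to 0.174).

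Fibroblast markers moved with Pdgfra among the tumours. The sum of 10 fibroblast and fibro-adipogenic markers was 13311 to 13517 in TUM, 23864 to 25786 in OFF3, and 26164 on OFF6 replicate 2 against 18101 and 17733 on the other two. In CTL it was 13931 to 14589. Of the 10 markers, 7 rose and 0 fell at each time after withdrawal, and 1 lay at the odour receptor level. Of all genes, 13.4% rose and 16% fell at day 3, and 14.9% rose and 16.6% fell at day 6. In CTL 5 of the 10 were higher than in TUM and 3 lower (all genes 45.9% and 30.3%, list median 0.40). Dpt and Dcn, matrix proteins of connective tissue, were 2.33 and 1.39 higher in CTL, while the collagens Col1a1 and Col3a1 differed by -1.48 and -1.17. The part of these cells in the Pdgfra values was not tested. The genes closest to Pdgfra over the 12 arrays were Gas6 (distance 0.11), a ligand of TAM receptors, Rbp4 (0.13), a retinol carrier, and Rgs4 (0.14), an inhibitor of G protein signalling. Gas6 had means of 9.34 in TUM, 10.37 in OFF3, 9.82 in OFF6 and 10.33 in CTL.

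Of 6 PDGF ligands and receptors beside Pdgfra, 4 rose and 1 fell at day 3 (all genes 13.4% and 16%). At day 6, 2 rose and 1 fell (all genes 14.9% and 16.6%). The list medians were 0.30 and 0.14. Pdgfa, a main ligand of the alpha receptor, fell by 0.37 ± 0.08 at day 3 (adjusted p = 0.00251) and by 0.36 ± 0.08 at day 6 (adjusted p = 0.00267), while the receptor rose. Pdgfc, also a ligand of the alpha receptor, rose by 0.77 ± 0.17 at day 3 (adjusted p = 0.00373) and differed by -2.08 in CTL from TUM. The beta receptor Pdgfrb, known from pericytes, rose by 0.41 ± 0.08 at day 3 (adjusted p = 0.00232), differed by 0.01 at day 6 (adjusted p = 0.917) and by -1.04 in CTL. Pdgfb, which binds both receptors, rose by 0.27 ± 0.07 at day 6 (adjusted p = 0.00741). The alpha and beta receptors thus stood on opposite sides of TUM in control muscle. Pdgfrl, a receptor-like protein without a kinase, rose by 2.01 ± 0.18 and 1.73 ± 0.18, 4.02- and 3.32-fold.

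**Figure D3:**
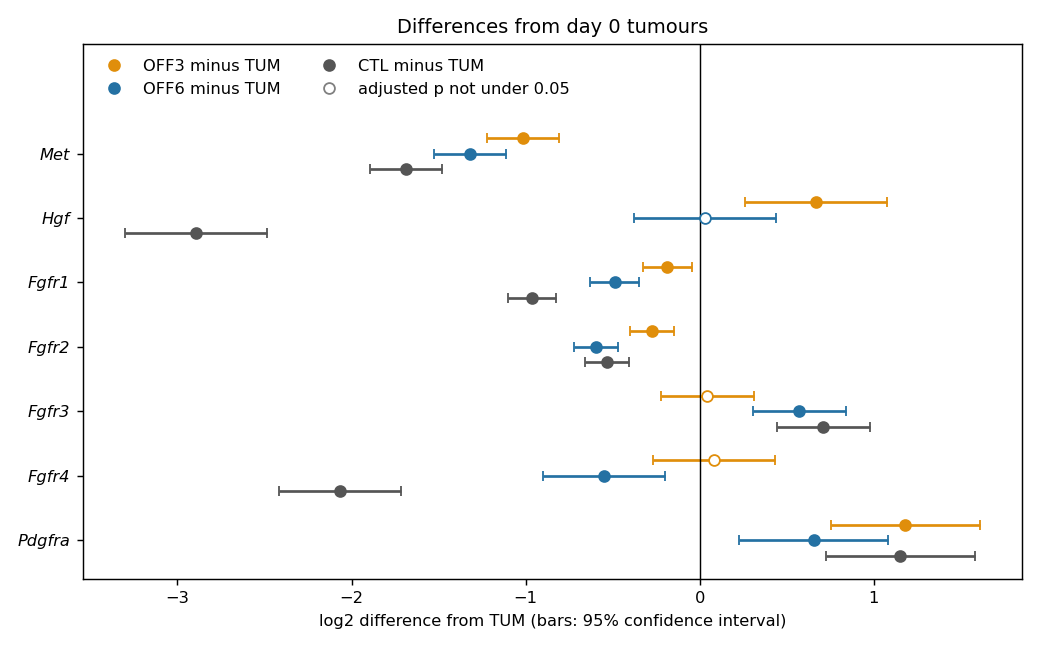
Log2 difference from day 0 tumours (x axis) of the 7 genes (y axis) in OFF3, OFF6 and CTL, with 95% confidence intervals from the limma fit (n = 3 per group). Filled points have an adjusted p under 0.05; Met, Fgfr1 and Fgfr2 lie left of 0 in all 3 comparisons and Pdgfra right of it.

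Set together, 5 of the 7 genes passed at day 3 against TUM, where 29.4% of all genes passed. Of these, 2 rose (13.4% of all genes) and 3 fell (16% of all genes). At day 6, 6 passed (all genes 31.5%), 2 higher (14.9%) and 4 lower (16.6%), with a median difference of -0.49 beside 0.05 over all genes. In CTL all 7 differed from TUM (all genes 76.2%), 2 higher (45.9%) and 5 lower (30.3%), so that count stands beside a high background. Between day 3 and day 6, 5 passed (all genes 10.4%), 1 higher at day 6 (6.05%) and 4 lower (4.38%), with a median of -0.32 beside 0.02. A fit of only those 6 arrays called 0 of the 7, and 30 of all genes against 2080. Without single OFF3 or OFF6 arrays 1 to 6 members were called. Without TUM replicate 1 the day 3 count was 3.

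Against control muscle, 6 of the 7 differed at day 3 (all genes 69.8%), 5 higher (28.4%) and 1 lower (41.4%). At day 6 there were 5 (all genes 64.2%), 4 higher (28.1%) and 1 lower (36.1%). On the log2 scale Hgf was then at least 2.51 and Fgfr4 1.52 above CTL. Fgfr2 and Fgfr3 did not pass against CTL at day 6. The shapes over the 12 arrays were closest for Fgfr1 and Fgfr2, 0.23 log2 units apart, followed by Met and Fgfr1 at 0.36, and farthest for Hgf and Fgfr3 at 1.66.

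Genes that ERK signalling downstream of these receptors is known to induce were examined as a list of 18. At day 3, 2 rose and 7 fell (all genes 13.4% and 16%), with a median of -0.23 beside 0.02 over all genes. At day 6, 3 rose and 8 fell (all genes 14.9% and 16.6%), with a median of -0.11. In CTL 2 were higher and 13 lower (all genes 45.9% and 30.3%), with a median of -0.53 beside 0.15. Fosl1, an AP-1 factor, fell by 2.34 ± 0.20 at day 3 and by 2.01 ± 0.20 at day 6, 5.08- and 4.02-fold, the largest fall of the list at both times. The ERK phosphatases Dusp4 and Dusp5 had day 3 differences of -1.38 ± 0.15 and -0.90 ± 0.08, and Dusp6 of -0.36 ± 0.09. At day 6 they were -1.20 ± 0.15, -0.84 ± 0.08 and -0.52 ± 0.09. The largest adjusted p of these 8 falls was 0.00961. Beside Spry2, Etv1 rose at day 3 (0.31 ± 0.10, adjusted p = 0.0297, limma). Egr1 (0.41 ± 0.11, 0.0131) and Ier3 (0.25 ± 0.07, 0.0222) rose at day 6. Each of these calls was lost when some single arrays were left out (adjusted p up to 0.103, 0.0619 and 0.105). The Sprouty inhibitors were mixed, as Spry1 fell by 0.61 and 0.46, Spry2 rose by 0.49 and 0.38, and Spry4 differed by -0.26 (adjusted p = 0.147) and -0.01 (adjusted p = 0.948). Of the Ets factors, Etv5 fell by 0.49 at day 3 (adjusted p = 0.00287) and differed by -0.11 at day 6 (adjusted p = 0.464), and Etv4 differed by -0.20 (adjusted p = 0.227) and -0.12 (adjusted p = 0.453).

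**Figure D4:**
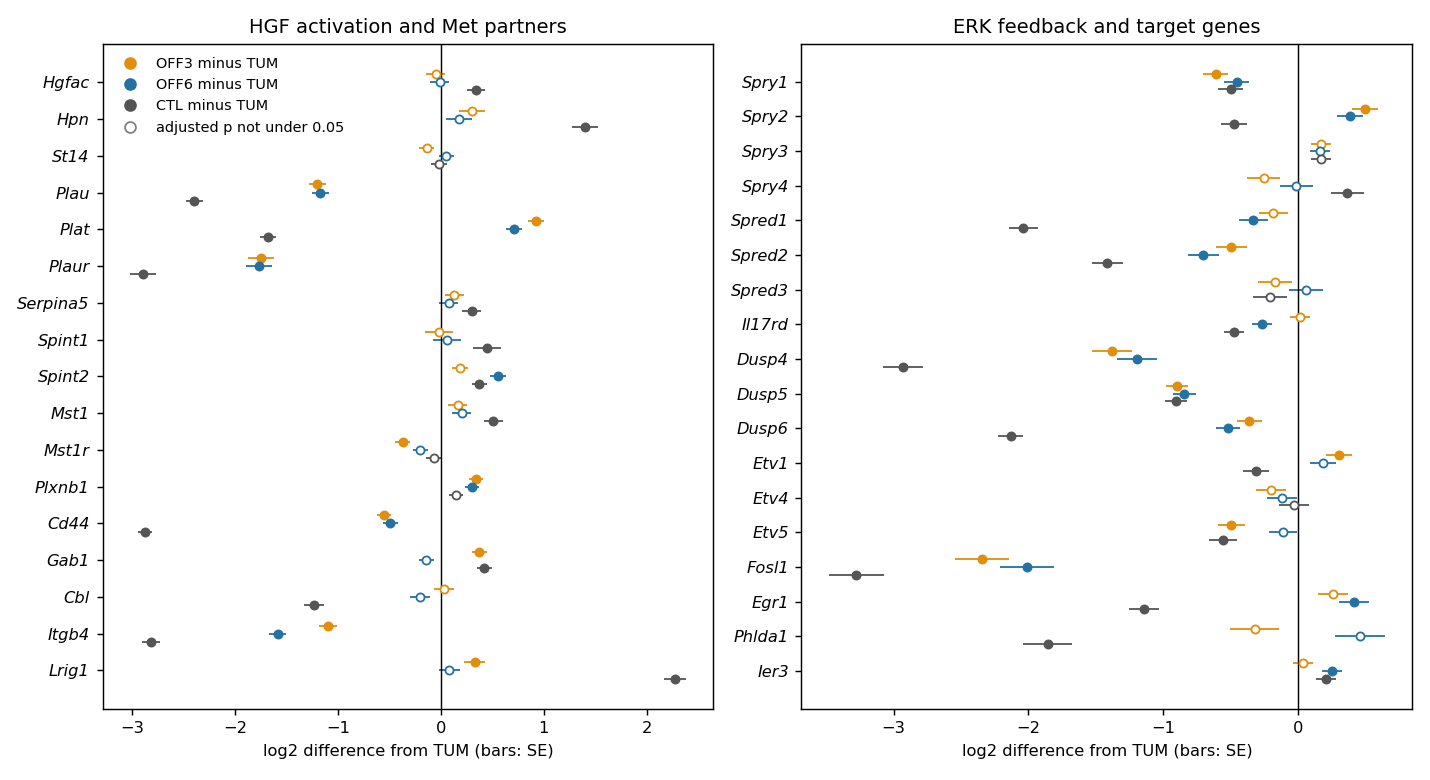
Log2 difference from day 0 tumours (x axis, bars are standard errors) in OFF3, OFF6 and CTL. Left, genes (y axis) of HGF activation and partners of Met, inhibitors among them. Right, ERK feedback and target genes. Filled points have an adjusted p under 0.05; Plau, Plaur, Itgb4, Dusp4 and Fosl1 lie left of 0 in all 3 comparisons.

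Of 19 measured adaptors and kinases shared by these receptors, 2 rose and 6 fell at day 3 (all genes 13.4% and 16%). At day 6, 3 rose and 3 fell, near the shares of all genes (14.9% and 16.6%). The list medians were -0.07 and -0.01. The kinase Src fell by 0.54 ± 0.07 and 0.60 ± 0.07, and the adaptor Crk by 0.39 ± 0.06 and 0.55 ± 0.06. Of 6 Pax and myogenic factors, 3 rose (Myf6, Myog and Myod1) and 2 fell at day 3 (all genes 13.4% and 16%). The day 3 call of Myod1 was lost when any 1 of the 6 arrays was left out (adjusted p 0.082 to 0.122). At day 6 the same 3 rose, by 1.27, 1.21 and 1.15, and 3 fell (all genes 14.9% and 16.6%). Pax3, which drives Met in embryonic muscle precursors, fell by 0.48 ± 0.11 (adjusted p = 0.00375) and 0.52 ± 0.11 (adjusted p = 0.00225). Pax7, which marks satellite cells, had a day 3 difference of -0.045 (adjusted p = 0.77) and fell by 0.31 at day 6 (adjusted p = 0.0125), a call lost without OFF6 replicate 3 (-0.27, adjusted p = 0.0547). In CTL, 2 of the 6 were higher than in TUM and 4 lower (all genes 45.9% and 30.3%). Myf6 was 2.10 and Pax7 0.38 higher, and Pax3 differed by -0.79. The myogenic factors Myf5, Myog and Myod1 differed from TUM by -3.45, -2.40 and -0.52 (largest adjusted p = 0.0162). With centred arrays the Myod1 difference was -0.38 (adjusted p = 0.0658).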

How the data were processed

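RNA of 12 samples (3 per group) was hybridised to Affymetrix mouse arrays, 1 sample each. Linear probe set intensity was deposited, which the authors made with RMA, per the submitters' processing notes; its version is not given in the sources used here. RMA puts all arrays on one intensity distribution, which can hide a shift common to most genes. Log2 was taken first. Of 34760 probe sets, 21640 carried 1 gene symbol, 1321 several and 11799 none; only the first kind was used, and the probe set with the highest mean was kept for the 954 genes with several, leaving 19937 genes. Of the 21640, 21553 matched RefSeq by gene ID. No filter on low values was set, and median intensity per array was 86.74 to 93.05.

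One limma 3.58.1 model (lmFit, eBayes; R 4.3.3) covered all 12 arrays with 4 group means, with 6 comparisons, two-sided tests and Benjamini-Hochberg adjustment over all genes at 0.05. Precision is limited by how many arrays there are, with a median standard error of 0.086 per difference at 12.2 degrees of freedom. The standard error of a gene pools the spread of all 4 groups. That spread was unequal in Hgf and Pdgfra, where it was widest in OFF6. The labels do not say that replicates were separate animals, so their spread, and with it each p-value, may be technical. The 3 comparisons with TUM share its arrays. Members and gene lists were chosen with earlier results of these data known, and a list is described by its counts and median. Named list genes are those the rule always names, or among the 3 largest called rises or falls of a list in a comparison with TUM. Where a gene lay below the 95th percentile of odour receptors on every array of a group, its fold is a lower bound against that percentile. Marker sums add linear intensities. Nearest genes were sought for members whose group means span at least 1 log2 unit. Promoter windows are from RefSeq (GRCm38.p6); 6 of 7 members had an entry. Motifs were searched on both strands. On simulated data, 73.1%, 98.5% and 100% of genes changed 1.5-, 2- and 4-fold in OFF3 against TUM were recovered among 19937. Of the calls, 3.72% were unchanged genes. The simulation gave each gene the same spread in all groups and changed only 67, 67 and 66 genes. Its rates need not hold for data with unequal spread or many more changed genes. Alternatives were other probe set rules, a filter on low values, 2 other scalings, 2 other variance settings, a replicate block, fits of only the compared arrays and leaving out each array; their effect is given at the end. Whether same-numbered samples are pairs could not be decided from their correlations, given at the end. Plots were drawn with matplotlib 3.10.9.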

Additional observations from a re-analysis of the deposited data

Results flagged for a closer look

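The change from TUM differed between day 6 and day 3 in 5 of the 7 genes, by the limma test of OFF6 against OFF3. Of all genes, 10.4% passed this test, 6.05% higher and 4.38% lower at day 6. The day 6 change was lower than the day 3 change in Fgfr1 (-0.30), Fgfr2 (-0.32), Fgfr4 (-0.63) and Hgf (-0.64), and higher in Fgfr3 (0.53). Leaving out single arrays ended each of these calls except that of Fgfr2, which was lost in a fit of only those 6 arrays (adjusted p = 0.101). That fit called 0 of the 7 genes.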

How the results depend on the processing

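Of the members' values under all alternatives, 550 kept their direction and side of the threshold, 44 no longer passed, 12 passed only then and 12 turned in sign. Each of the 7 members kept its call between CTL and TUM in every alternative that tested it. Fgfr2 and Fgfr3 were not among the genes above the median level, so only 5 members were tested and called there. With arrays centred on their median the sign turned in Hgf at day 6 (-0.011), Pdgfra in OFF3 against CTL (-0.14), and, in CTL against TUM, in Etv4 (0.11), Mst1r (0.069) and Pdgfa (0.0030), and in Pdgfrb at day 6 (-0.027). Quantile normalisation turned Fgfr2 in OFF6 against CTL (0.095), Fgfr3 at day 3 (-0.028), Pdgfra in OFF3 against CTL (-0.035) and Spry4 at day 6 (0.0053). Array weights turned, at day 6, Hgf (-0.22), Hgfac (0.043), Pdgfrb (-0.019) and Spry4 (0.11). Centring moved the median over all genes in CTL against TUM from 0.15 to 0.29.

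Leaving out single arrays gave ranges across 0 in Fgfr3 at day 3 (-0.012 to 0.14) and in OFF6 against CTL (-0.25 to 0.011), Fgfr4 at day 3 (-0.046 to 0.32), Hgf at day 6 (-0.28 to 0.20), Pdgfra in OFF3 against CTL (-0.0025 to 0.064), Etv4 (-0.095 to 0.064) and Mst1r (-0.11 to 0.0020) in CTL against TUM, Hgfac at day 3 (-0.16 to 0.046) and day 6 (-0.033 to 0.029), and Pdgfrb (-0.021 to 0.047) and Spry4 (-0.12 to 0.15) at day 6. Members called ran from 3 to 5 at day 3 and from 1 to 6 between day 3 and day 6. The 2080 genes called between day 3 and day 6 ran from 452 (without OFF6 replicate 3) to 4874 (without OFF6 replicate 2), and were 8424 with array weights and 30 with only those 6 arrays, which called 0 members (Fgfr1 to Fgfr4 and Hgf had adjusted p 0.101 to 0.215). Array weights called 11175 genes at day 3 (main 5868) and 10545 at day 6 (main 6279). Among genes above the median level, 8401 differed between CTL and TUM (main 15199), 8165 between OFF3 and CTL (main 13910) and 7923 between OFF6 and CTL (main 12790), since fewer genes were tested. The share of calls that were higher was then 40.1% (main 60.3%), 57.5% (main 40.7%) and 59.1% (main 43.8%); with centred arrays OFF3 and OFF6 against CTL gave 27.6% and 27.2%. The cause of the other changes was not tested.

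The labels do not say whether replicate numbers pair the samples. Deviations from group means were correlated over 0.1 in 3 of 18 same-numbered pairs (range -0.39 to 0.25). Differently numbered pairs ran from -0.44 to 0.46, so these correlations cannot decide on pairing. With the replicate block, Fgfr1 at day 3 (-0.19, adjusted p = 0.0698) and Hgf from day 3 to day 6 (-0.64, adjusted p = 0.0589) did not pass, and 5476 genes were called at day 3 and 1654 between day 3 and day 6.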
